A study of Mus musculus with 9 samples.

Results

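Striatal projection neuron genes are the 32 genes described here, of 21899 in the deposited gene table. They are receptors, cAMP signalling genes and transcription factors typical of the GABAergic output neurons of the striatum. The list was drawn up because striatal transcripts differed between the groups of this same table, so every group difference given here for a member is a description of how the members were chosen and not a test. All 32 were found by name in the table, and all 32 passed the filter on low counts, as did 14837 genes in all.

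RNA sequencing was done on fresh PVT tissue (paraventricular nucleus of the thalamus, a midline nucleus involved in wakefulness) of wild-type (WT) mice. The 9 libraries form 3 groups of 3: 7 days after LPS (lipopolysaccharide, an outer membrane molecule of bacteria that provokes inflammation), 1 day after LPS, and 1 day after phosphate-buffered saline (PBS), each agent having been injected into the peritoneal cavity. The sources used here give no LPS dose and no strain, age or sex of the mice. No PBS group at 7 days was analysed here, so day and treatment cannot be told apart in the 7 day comparison with PBS. The LPS groups are separate libraries that also differed in cerebellar markers (given below), so day and tissue make-up cannot be told apart between them. Where a course from 1 to 7 days is named below, it is a comparison of these groups. Whether each replicate is its own mouse is not stated, so the tests weigh differences against a spread that may be technical only.

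Projection neurons make up most of the striatum. They fall into direct-pathway neurons, which carry the dopamine receptor Drd1, and indirect-pathway neurons, which carry Drd2. Both receptors act on cAMP: Drd1 raises it through the G protein subunit encoded by Gnal and the adenylyl cyclase encoded by Adcy5, and Drd2 lowers it. The protein kinase that cAMP activates then phosphorylates DARPP-32, the product of Ppp1r1b, which inhibits protein phosphatase 1, while phosphodiesterases such as those encoded by Pde10a and Pde1b end the signal. A set of transcription factors, several from the Dlx homeobox family, directs the making of these neurons before birth.

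Library totals ran from 13211422 to 17210526 counts. Levels of a gene are in CPM (counts relative to the library total after TMM scaling), with means ± SD over 3 libraries. Genes are set against each other only in FPKM, the authors' values per gene length. Replicates differed beyond sampling noise, with a chi-square of 2.01 to 3.66 for each degree of freedom. The 4 listed Y-linked genes together had 90.5 to 102 CPM in the 7 day LPS libraries, 81.4 to 85.2 CPM in the 1 day LPS libraries and 0 to 0.0587 CPM in the PBS libraries, so LPS and PBS libraries differed in Y-linked transcripts as well as in treatment. The labels give no sex, and sex and treatment cannot be told apart in any comparison with PBS. Defining markers of thalamic neurons were present in every library: Slc17a6, the glutamate transporter of thalamic neurons, averaged 30.9 FPKM at 7 days after LPS, 24.6 FPKM at 1 day after LPS and 36.6 FPKM in PBS. Tcf7l2, a thalamic transcription factor, averaged 4.66 FPKM, 5.49 FPKM and 7.50 FPKM in the same order of groups, and both markers were called lower than in PBS at both times. The 7 markers fixed for striatal projection neurons, 3 of them members, were present in every library too, and Ppp1r1b reached 103 FPKM in PBS.

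Summed over the list, the striatal genes were lower in both LPS groups than in PBS. Their CPM summed to 2467 to 2542 in the 7 day LPS libraries, to 3272 to 3288 in the 1 day LPS libraries and to 4696 to 4877 in the PBS libraries, and the 3 ranges did not overlap. The mean sum was 52.0% of PBS 7 days after LPS and 68.4% of PBS 1 day after LPS. In tissue, fewer cells of a type and less RNA per cell cannot be told apart. Which cells the reads of a member came from was not tested. Counting by the edgeR quasi-likelihood test over all genes (adjusted p under 0.05), 30 of 32 members were lower 1 day after LPS and 2 did not pass, where 24.2% of all genes tested were called lower and 49.1% were called in either direction. In the same 30 members every LPS library lay below every PBS library, as in 27.1% of all genes, and in no member did all lie above, as in 27.4% of all genes. At 7 days 31 of 32 were lower than in PBS and 1 was higher, where 18.9% of all genes were called lower, 16.8% higher and 35.6% in either direction. None of the 32 overlapped between these groups, and the libraries of 22.7% of all genes lay wholly below PBS and those of 21.5% wholly above. Since the members were chosen on these differences, nothing is read from the gap. The median log2 fold change of the members was -0.66 at 1 day and -0.96 at 7 days, beside -0.0099 and 0.0022 over all genes tested. A fall of at least 1 log2 unit against PBS was seen in 5 members at 1 day and in 14 at 7 days, and 4 members met it at both.

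**Figure D1:**
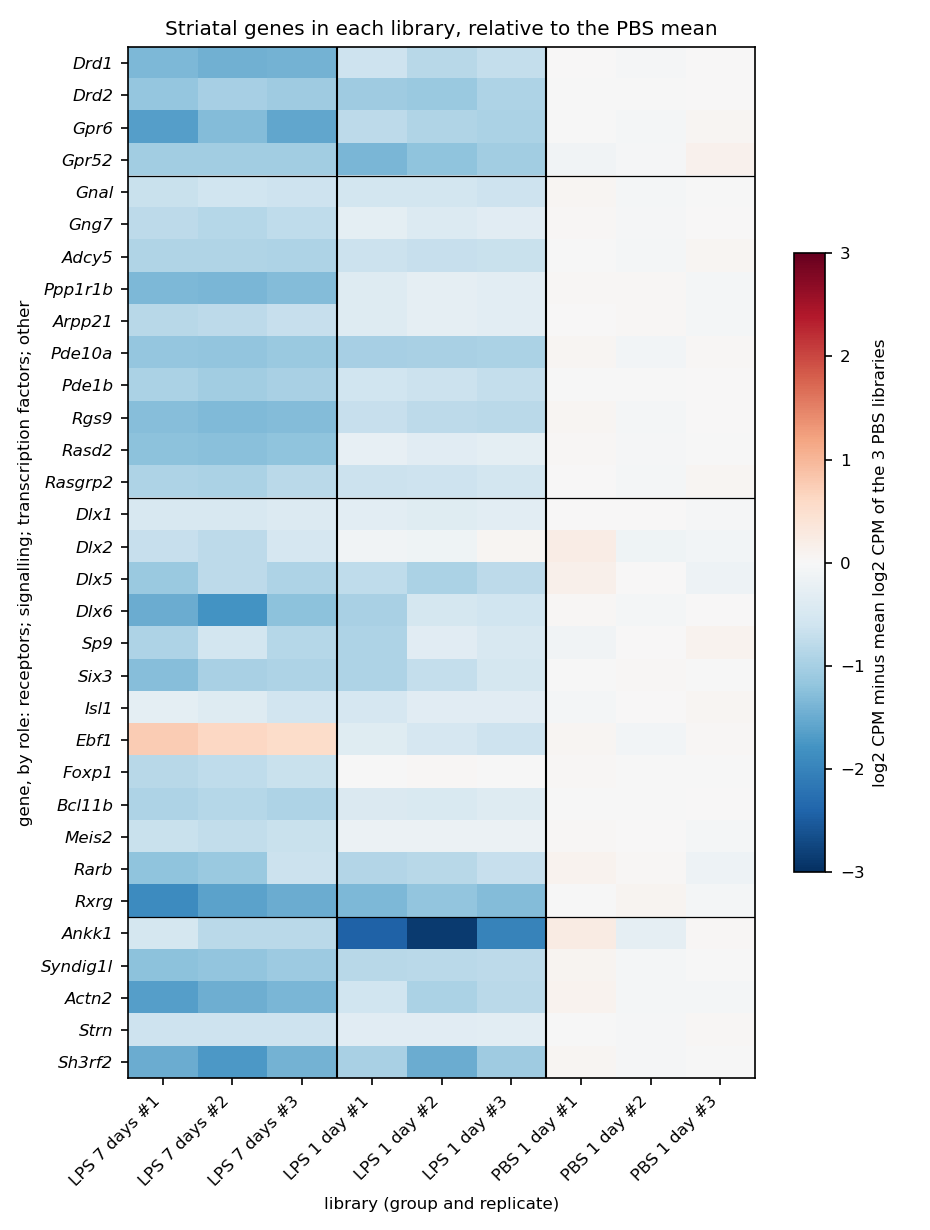
Heat map of the 32 striatal genes (rows, by role) in the 9 libraries (columns, by group), coloured by log2 CPM minus the mean log2 CPM of the 3 PBS libraries. Blue fills nearly all rows of the 7 day and 1 day LPS libraries, and Ebf1 is the row that is above PBS in all 3 libraries at 7 days.

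The 4 receptors were all lower after LPS than in PBS, and they differed in how the 7 day group compared with the 1 day group. Drd1 (chromosome 13, 54205202 to 54209724, GRCm39) had 20.8, 19.5 and 19.8 CPM in the 7 day LPS libraries, 34.1, 29.6 and 32.1 CPM in the 1 day LPS libraries, and 53.1, 51.2 and 53.4 CPM in PBS. The 3 groups of libraries lay apart, with 7 days lowest and PBS highest. Its log2 fold change against PBS was -1.39 ± 0.07 at 7 days and -0.72 ± 0.07 at 1 day (SE). Drd2 (chromosome 9, 49251927 to 49319477) had 39.4, 43.7 and 41.7 CPM at 7 days, 42.0, 40.6 and 46.0 CPM at 1 day, and 86.8, 87.9 and 89.0 CPM in PBS. For Drd2 the LPS libraries of both days overlapped, and all of them lay below PBS, by -1.08 ± 0.06 at 7 days and -1.03 ± 0.06 at 1 day on the log2 scale.

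The orphan receptors Gpr6 and Gpr52 both couple to the stimulatory G protein and are at home in indirect-pathway neurons, yet their courses were unlike. Gpr6 (chromosome 10, 40945973 to 40948281) had 9.56, 12.1 and 10.2 CPM at 7 days after LPS, 17.4, 16.1 and 15.6 CPM at 1 day after LPS, and 29.5, 29.0 and 31.3 CPM in PBS. As with Drd1, the 3 groups lay apart, and the log2 fold change against PBS was -1.49 ± 0.10 at 7 days and -0.87 ± 0.09 at 1 day. Gpr52 had 10.6, 10.6 and 10.5 CPM at 7 days after LPS, 8.40, 9.40 and 10.6 CPM at 1 day after LPS, and 20.3, 21.2 and 24.0 CPM in PBS. As with Drd2, both LPS groups overlapped each other below PBS, at -1.04 ± 0.11 and -1.19 ± 0.11. Gpr52 lies inside Rabgap1l on the same strand, which had more reads, so how the authors' counting shared reads between them bears on the level of Gpr52.

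Promoters of the receptor genes are shown because all 4 were lower than in PBS at both times and act through cAMP, although their courses between 1 and 7 days differed. Gpr52 is named only, with no window. Each sequence is the 250 bases upstream of a start site given by RefSeq on GRCm38.p6, 5′ to 3′ on the strand of the gene, matched by symbol. Drd1 has 2 listed starts. The windows are chr13:54054781-54055030, minus strand (Drd1, downstream start), chr13:54055659-54055908, minus strand (Drd1, upstream start), chr9:49340153-49340402, plus strand (Drd2) and chr10:41072291-41072540, minus strand (Gpr6). Capitals mark a GC box (GGGCGG) or a cAMP response element (TGACGTCA) on either strand.
Drd1 downstream start: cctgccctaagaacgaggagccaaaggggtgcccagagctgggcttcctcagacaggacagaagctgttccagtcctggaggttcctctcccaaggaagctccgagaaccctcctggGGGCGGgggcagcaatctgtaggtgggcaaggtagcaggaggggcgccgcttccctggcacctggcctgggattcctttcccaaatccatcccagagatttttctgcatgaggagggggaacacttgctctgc
Drd1 upstream start: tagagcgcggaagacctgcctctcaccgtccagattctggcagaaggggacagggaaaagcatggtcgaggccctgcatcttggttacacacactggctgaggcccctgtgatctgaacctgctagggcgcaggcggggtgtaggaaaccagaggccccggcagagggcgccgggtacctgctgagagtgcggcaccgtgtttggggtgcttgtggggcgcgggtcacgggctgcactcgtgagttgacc
Drd2: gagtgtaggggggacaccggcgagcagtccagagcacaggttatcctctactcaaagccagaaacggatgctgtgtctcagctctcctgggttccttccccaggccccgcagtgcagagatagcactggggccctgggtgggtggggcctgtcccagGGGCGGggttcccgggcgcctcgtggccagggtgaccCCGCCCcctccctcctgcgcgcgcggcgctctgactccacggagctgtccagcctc
Gpr6: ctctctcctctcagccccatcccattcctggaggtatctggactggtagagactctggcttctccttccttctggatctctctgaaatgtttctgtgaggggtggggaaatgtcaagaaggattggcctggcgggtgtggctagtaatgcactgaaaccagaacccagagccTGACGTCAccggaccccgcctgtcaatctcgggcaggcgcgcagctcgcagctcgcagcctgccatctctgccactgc
A RefSeq window was found for 24 of the 32 members, with 42 windows in all, some of which overlap because a gene has several starts. Shares are of windows and not of genes, and Arpp21 supplies more of the windows than any other member. The full element TGACGTCA stood in 1 of the 42 windows (2.38%), that of Gpr6, against 1.55% of the 32851 windows in the table. Its shorter form TGACG, which lies within it on both strands, stood in 19% against 17.8%, and the GC box GGGCGG in 35.7% against 32.7%. The homeodomain core TAATTA was in 2.38% against 4.84%, the nuclear receptor motif AGGTCA in 7.14% against 14%, and the TATA box TATAAA in 4.76% against 12.4%. These matches describe letters in short windows and say nothing of binding. Promoter windows of the members were somewhat richer in G and C, with a median of 58% against 52.4% over all windows.

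**Figure D2:**
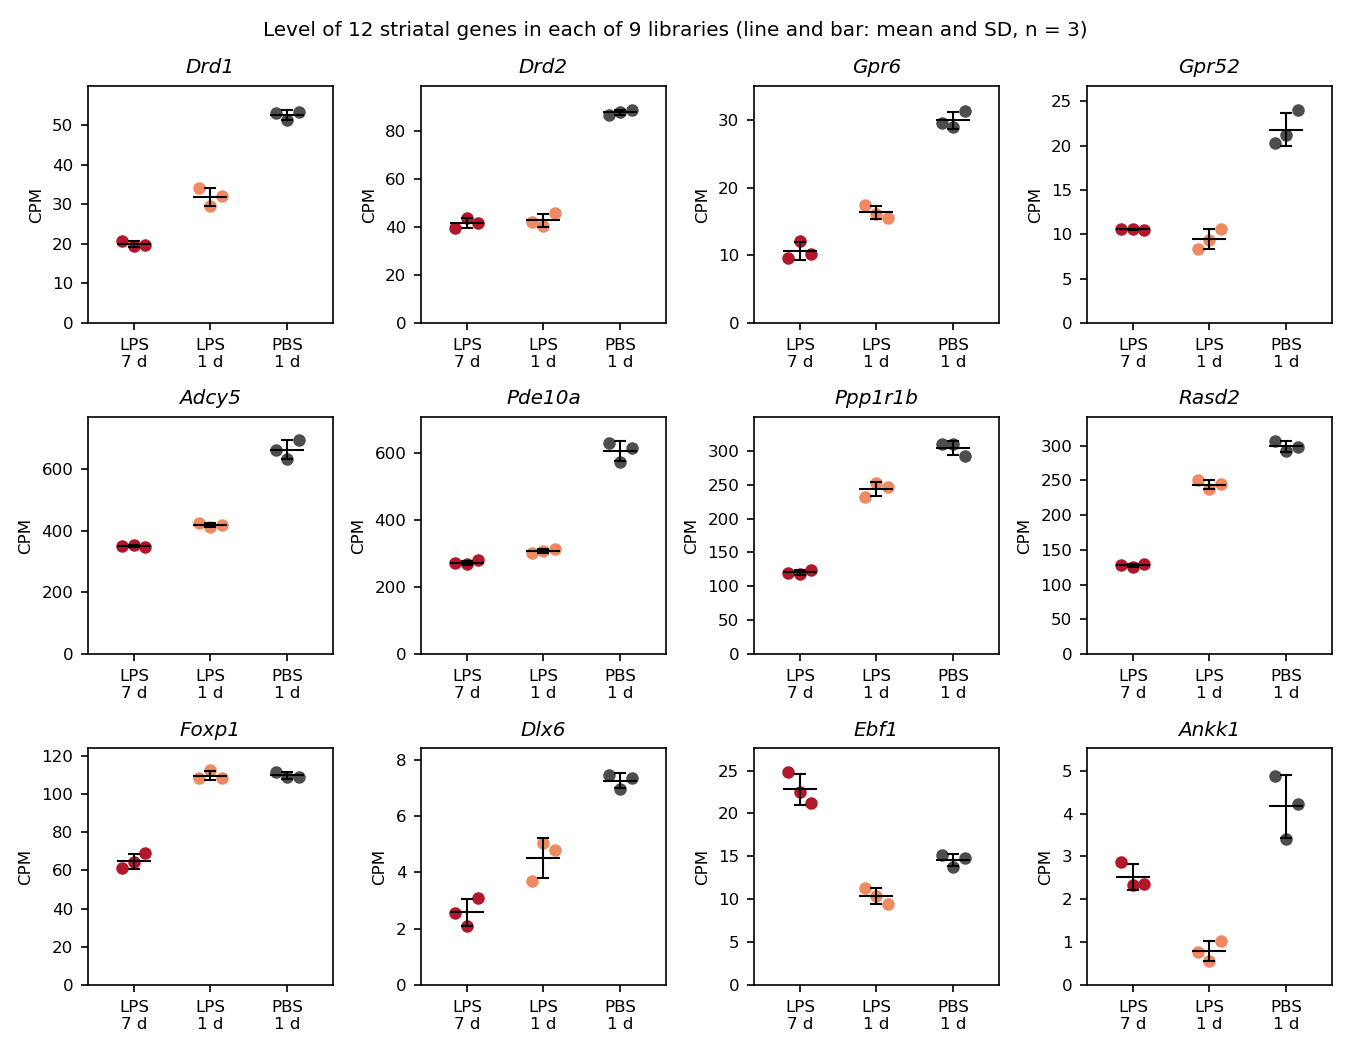
CPM of 12 striatal genes in each library, by group (points are libraries, the line and bar are mean and SD of 3). At 1 day after LPS, Drd2, Gpr52 and Pde10a stood near their 7 day level. Ppp1r1b, Rasd2 and Foxp1 stood at most or all of their PBS level at 1 day. Ebf1 and Ankk1 were unlike the rest.

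The 10 signalling genes were lower than in PBS in both LPS groups, and no library of either LPS group reached the PBS range for any of them. They differed in where the 1 day level lay between PBS and 7 days. Ppp1r1b (chromosome 11, 98239230 to 98248622), which encodes DARPP-32, had 119, 118 and 124 CPM at 7 days after LPS, 232, 252 and 246 CPM at 1 day after LPS, and 309, 311 and 293 CPM in PBS. Its 1 day level was thus nearer to PBS than to 7 days, with log2 fold changes of -1.34 ± 0.04 at 7 days and -0.32 ± 0.04 at 1 day against PBS. Rasd2, which encodes Rhes, a striatal small GTPase, ran in parallel, with 128, 126 and 130.1 CPM at 7 days after LPS, 250.3, 237 and 244 CPM at 1 day after LPS, and 307, 292 and 298 CPM in PBS. Its log2 fold changes against PBS were -1.22 ± 0.04 at 7 days and -0.29 ± 0.04 at 1 day.

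Pde10a encodes the phosphodiesterase that degrades cAMP and cGMP in these neurons. It was lower in both LPS groups too, but its 1 day level lay nearer to 7 days than to PBS. It averaged 273 ± 5.95 CPM at 7 days after LPS, 308 ± 6.42 CPM at 1 day after LPS and 608 ± 29.7 CPM in PBS. The 7 day level was still below that at 1 day (log2 fold change -0.18 ± 0.04). Its log2 fold changes against PBS were -1.16 ± 0.04 at 7 days and -0.98 ± 0.04 at 1 day. Gnal, the stimulatory subunit of striatal and olfactory neurons, had 259, 271 and 268 CPM at 7 days after LPS, 282, 284 and 269.8 CPM at 1 day after LPS, and 429.8, 398 and 411 CPM in PBS. The LPS groups overlapped, and the log2 fold change was -0.64 ± 0.04 at 7 days and -0.57 ± 0.04 at 1 day.

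Between these courses lay the rest of the signalling genes. Adcy5, the main adenylyl cyclase of the striatum, averaged 351 ± 2.70 CPM at 7 days after LPS, 419 ± 6.34 CPM at 1 day after LPS and 663 ± 30.9 CPM in PBS. Gng7, the subunit that partners with the product of Gnal, averaged 199 ± 6.86, 274 ± 11.1 and 348 ± 7.31 CPM in the same order of groups. Rgs9, a G protein regulator that shortens dopamine signals, averaged 59.4 ± 0.827 CPM at 7 days, 87.0 ± 3.83 CPM at 1 day and 147 ± 6.51 CPM in PBS, and its log2 fold change against PBS was -1.31 ± 0.05 at 7 days and -0.76 ± 0.05 at 1 day. Over Pde1b (a calcium-dependent phosphodiesterase), Arpp21 (a phosphoprotein regulated by cAMP) and Rasgrp2 (an activator of the GTPase Rap), log2 fold changes ran from -0.99 to -0.77 at 7 days and from -0.65 to -0.33 at 1 day.

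In other genes of cAMP and protein kinase A signalling outside the members, more were lower than higher at 1 day, and most were lower at 7 days. Of 34 tested, 14 were lower, 6 higher and 14 did not pass 1 day after LPS (median log2 fold change -0.058). Over all genes tested, 24.2% were lower and 24.9% higher at that time. At 7 days against PBS 23 were lower, 2 higher and 9 did not pass (median -0.20), beside 18.9% lower and 16.8% higher over all genes. The genes named next had the smallest p-values at 1 day and do not stand for the 7 day count. Prkar2b, a regulatory subunit of protein kinase A, averaged 61.0 ± 0.794 CPM at 7 days after LPS, 52.8 ± 1.09 CPM at 1 day after LPS and 93.8 ± 6.55 CPM in PBS. Gnb5, the G protein subunit that binds the product of Rgs9, averaged 103 ± 3.12, 76.6 ± 3.45 and 119.9 ± 7.43 CPM, so that both of these were lower at 1 day than at 7 days. Akap12, an anchor of protein kinase A, rose at 1 day by 1.09 ± 0.05 on the log2 scale, and Pde4b, a phosphodiesterase for cAMP, by 0.55 ± 0.04.

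Among the 13 transcription factors, 11 were lower and 2 did not pass 1 day after LPS, and 12 were lower and 1 was higher at 7 days against PBS. The retinoid receptor Rxrg had 6.25, 7.65 and 8.22 CPM at 7 days after LPS, 9.09, 10.2 and 9.37 CPM at 1 day after LPS, and 23.1, 24.4 and 22.3 CPM in PBS. All LPS libraries lay far under PBS, and its log2 fold changes, -1.66 ± 0.11 at 7 days and -1.28 ± 0.11 at 1 day, were the largest of the factors at both times. Rarb, a retinoic acid receptor, averaged 7.74 ± 1.66, 8.71 ± 0.584 and 15.2 ± 1.40 CPM in the same order, and its gene overlaps Top2b on the other strand. Reads of overlapping genes cannot be told apart where the counting is not stated to use strand, which also holds for Sp9, which overlaps Cir1, and for Gnal, which overlaps Mppe1.

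Foxp1, Meis2 and Dlx2 were the factors with the smallest differences 1 day after LPS. Foxp1, a forkhead factor shared by both pathways, had 61.2, 64.3 and 68.8 CPM at 7 days after LPS, 108, 112 and 108 CPM at 1 day after LPS, and 112, 109 and 109 CPM in PBS. The 1 day LPS and PBS libraries overlapped (-0.0024 ± 0.05 on the log2 scale), while the 7 day libraries lay below both (-0.76 ± 0.05 against PBS). Dlx2, a homeobox gene of the GABAergic lineage, had 5.08, 4.75 and 5.74 CPM at 7 days after LPS, 7.55, 7.53 and 8.52 CPM at 1 day after LPS, and 9.51, 7.46 and 7.70 CPM in PBS. It too overlapped between 1 day LPS and PBS (-0.07 ± 0.14) and fell at 7 days (-0.67 ± 0.15). Meis2, a homeobox cofactor, had 80.2, 76.8 and 81.1 CPM at 7 days after LPS, 113, 114 and 113 CPM at 1 day after LPS, and 131, 129 and 124 CPM in PBS. Its groups lay apart, with a small step at 1 day (-0.18 ± 0.05) and a larger one at 7 days (-0.69 ± 0.05).

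The other Dlx genes fell at both times. Dlx1 lies beside Dlx2 on chromosome 2 and had 19.7, 19.7 and 20.7 CPM at 7 days after LPS, 22.0, 21.4 and 22.0 CPM at 1 day after LPS, and 27.8, 27.7 and 27.0 CPM in PBS. Dlx5 had 4.53, 5.67 and 5.20 CPM at 7 days after LPS, 5.78, 5.11 and 5.72 CPM at 1 day after LPS, and 10.9, 9.87 and 8.86 CPM in PBS. Both LPS groups lay below PBS in these genes, and between themselves they overlapped for Dlx5 but not for Dlx1, where they lay close. Dlx6, the neighbour of Dlx5 on chromosome 6, averaged 2.58 ± 0.489 CPM at 7 days after LPS, 4.52 ± 0.718 CPM at 1 day after LPS and 7.26 ± 0.265 CPM in PBS, so its 3 groups lay apart and its log2 fold change against PBS reached -1.49 ± 0.18 at 7 days. Within each pair of neighbours, the gene that was further down at 7 days than at 1 day (Dlx2 and Dlx6) stood beside a gene that did not pass between the LPS groups (Dlx1 and Dlx5).

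Factors tied to either pathway were lower at both times as well, with Ebf1 at 7 days as the exception. Isl1, a LIM homeobox gene of direct-pathway neurons, had 10.3, 9.62 and 8.46 CPM at 7 days after LPS, 8.78, 9.84 and 9.92 CPM at 1 day after LPS, and 12.04, 12.6 and 13.0 CPM in PBS. The log2 fold changes of Isl1 against PBS were -0.41 ± 0.12 at 7 days and -0.39 ± 0.12 at 1 day. Sp9 and Six3, needed for indirect-pathway neurons, were at -0.77 ± 0.13 and -1.05 ± 0.09 at 7 days, and at -0.55 ± 0.12 and -0.70 ± 0.09 at 1 day. Bcl11b (Ctip2), a zinc finger factor of all projection neurons, averaged 72.0 ± 1.78, 99.4 ± 2.25 and 134 ± 1.70 CPM at 7 days after LPS, at 1 day after LPS and in PBS.

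Ebf1, a factor of direct-pathway development that other brain regions and blood vessels also use, went against the list at 7 days. It had 24.8, 22.4 and 21.2 CPM at 7 days after LPS, 11.3, 10.3 and 9.43 CPM at 1 day after LPS, and 15.15, 13.7 and 14.8 CPM in PBS. The 7 day libraries lay above PBS and the 1 day libraries below it, with log2 fold changes of 0.65 ± 0.10 and -0.50 ± 0.11. Cerebellar markers moved with it. The 6 listed ones summed to 726 to 737 CPM in the 7 day LPS libraries, to 9.01 to 9.65 CPM in the 1 day LPS libraries and to 10.9 to 12.7 CPM in PBS, and 6 of 6 were higher at 7 days than in PBS, while Gabra6, a receptor subunit of cerebellar granule cells, was at 0 counts in 2 of the 3 LPS 1 day libraries. Their part in the level of Ebf1, and in that of the other members at 7 days, was not tested.

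The remaining 5 genes, a kinase and proteins of synapse and scaffold, were lower at both times. Ankk1, a kinase gene that lies next to Drd2 on chromosome 9 (49326494 to 49338321) on the other strand, had 2.88, 2.34 and 2.37 CPM at 7 days after LPS, 0.770, 0.560 and 1.03 CPM at 1 day after LPS, and 4.87, 3.42 and 4.22 CPM in PBS. It had the largest fold of the list at 1 day, a log2 fold change of -2.39 ± 0.29, and its 1 day libraries held 10, 9 and 17 counts. At 7 days its level was nearer to PBS, at -0.72 ± 0.23, and without PBS replicate 1 this was -0.59 and no longer passed. In FPKM, Ankk1 stood at 0.0528 ± 0.009 of Drd2 at 7 days after LPS, 0.0157 ± 0.00375 of it at 1 day after LPS and 0.041 ± 0.00746 of it in PBS. The 1 day ratios lay below all others, so the neighbours did not keep a fixed proportion. Beyond Ankk1 on the same chromosome, Ncam1 and Ttc12 had log2 fold changes of -0.16 ± 0.04 and -0.26 ± 0.16 at 1 day, with Ncam1 past the threshold and Ttc12 not (-0.41 without LPS 1 day replicate 1, which passed).

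Sh3rf2, an SH3 domain protein with a RING finger, had 8.94, 7.65 and 9.46 CPM at 7 days after LPS, 12.9, 9.03 and 11.98 CPM at 1 day after LPS, and 26.1, 24.7 and 24.9 CPM in PBS. Actn2, an actin cross-linker of dendritic spines, had 15.01, 17.02 and 18.04 CPM at 7 days after LPS, 30.8, 24.2 and 26.8 CPM at 1 day after LPS, and 50.2, 45.4 and 45.4 CPM in PBS. Both lay well below PBS, at -1.54 ± 0.11 and -1.49 ± 0.08 at 7 days and at -1.17 ± 0.11 and -0.79 ± 0.08 at 1 day. Strn, which encodes the calmodulin-binding scaffold striatin, changed less, with 114, 114 and 114 CPM at 7 days after LPS, 138, 139 and 139.9 CPM at 1 day after LPS, and 174, 171 and 179.5 CPM in PBS. The 3 groups of Strn lay apart although its log2 fold changes were only -0.62 ± 0.04 and -0.33 ± 0.04. Syndig1l, a membrane protein gene of the striatum, was at -1.16 ± 0.06 at 7 days and -0.82 ± 0.06 at 1 day.

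**Figure D3:**
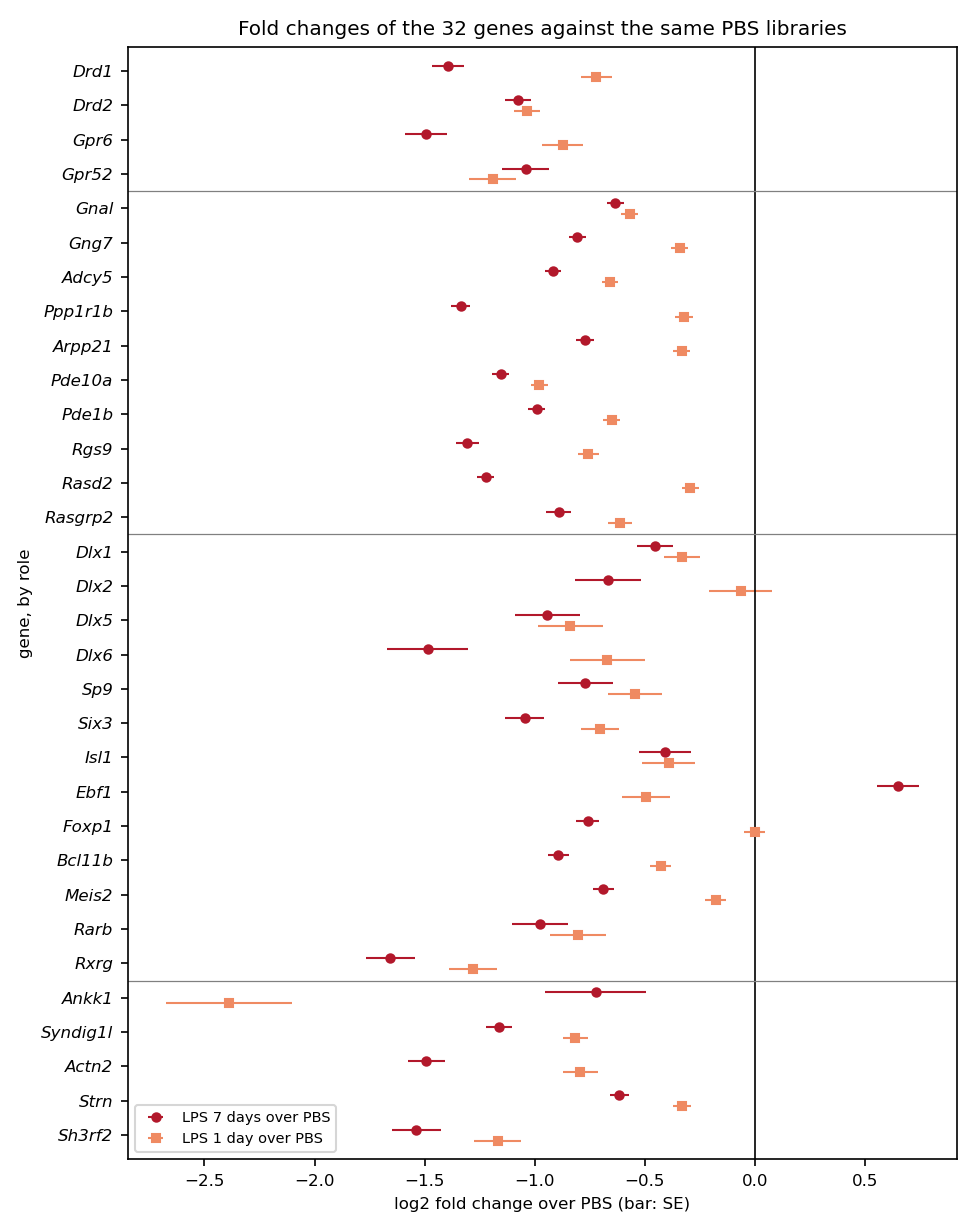
Log2 fold change of each striatal gene (rows, by role) over PBS at 7 days (circles) and 1 day (squares) after LPS, with SE bars. Both sets share the same 3 PBS libraries. Symbols lie close together for Drd2, Gnal, Isl1 and Dlx5 and far apart for Ppp1r1b, Rasd2 and Foxp1, and Ebf1 lies on either side of 0.

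Set directly against each other, the LPS groups differed in 24 of the 32 members. At 7 days 22 were lower than at 1 day and 2, Ankk1 and Ebf1, were higher, where 29.1% of all genes tested were called lower, 27.5% higher and 56.6% in either direction. The libraries lay wholly below in 22 members and wholly above in 2, as in 31.1% and 29.5% of all genes. These 22 are not quite the 22 called lower. Sh3rf2 was called lower although its libraries overlapped, and Dlx1 lay wholly below but did not pass. The median log2 fold change of the members was -0.35, beside -0.0011 over all genes. Ppp1r1b had the steepest fall (-1.02 ± 0.04), followed by Rasd2 (-0.93 ± 0.04), Dlx6 (-0.81 ± 0.20) and Foxp1 (-0.76 ± 0.05). Ankk1 rose by 1.67 ± 0.31 and Ebf1 by 1.14 ± 0.10. The 8 that did not pass were Sp9, Rarb, Dlx1, Dlx5, Gnal, Drd2, Isl1 and Gpr52, with log2 fold changes from -0.22 to 0.15.

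Single libraries decided the call between the LPS groups in a few members. Sh3rf2 (-0.37 ± 0.12) no longer passed without LPS 1 day replicate 1 (-0.27), LPS 1 day replicate 3 (-0.32) or LPS 7 day replicate 2 (-0.28). Rxrg (-0.38 ± 0.13) did not pass without LPS 1 day replicate 2 (-0.32) or LPS 7 day replicate 1 (-0.27), and Six3 (-0.34 ± 0.09) did not without LPS 1 day replicate 3 (-0.23). Conversely Sp9 passed without LPS 1 day replicate 1 (-0.37) or LPS 7 day replicate 2 (-0.35), and Rarb passed without LPS 7 day replicate 3 (-0.36). With libraries scaled to 6 general neuron markers, a setting chosen after the data were seen, 17 members were lower and 3 higher at 7 days than at 1 day, and Pde10a, Rasgrp2, Six3, Rxrg and Sh3rf2 no longer passed (-0.031 to -0.23) while Gpr52 did (0.30).

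**Figure D4:**
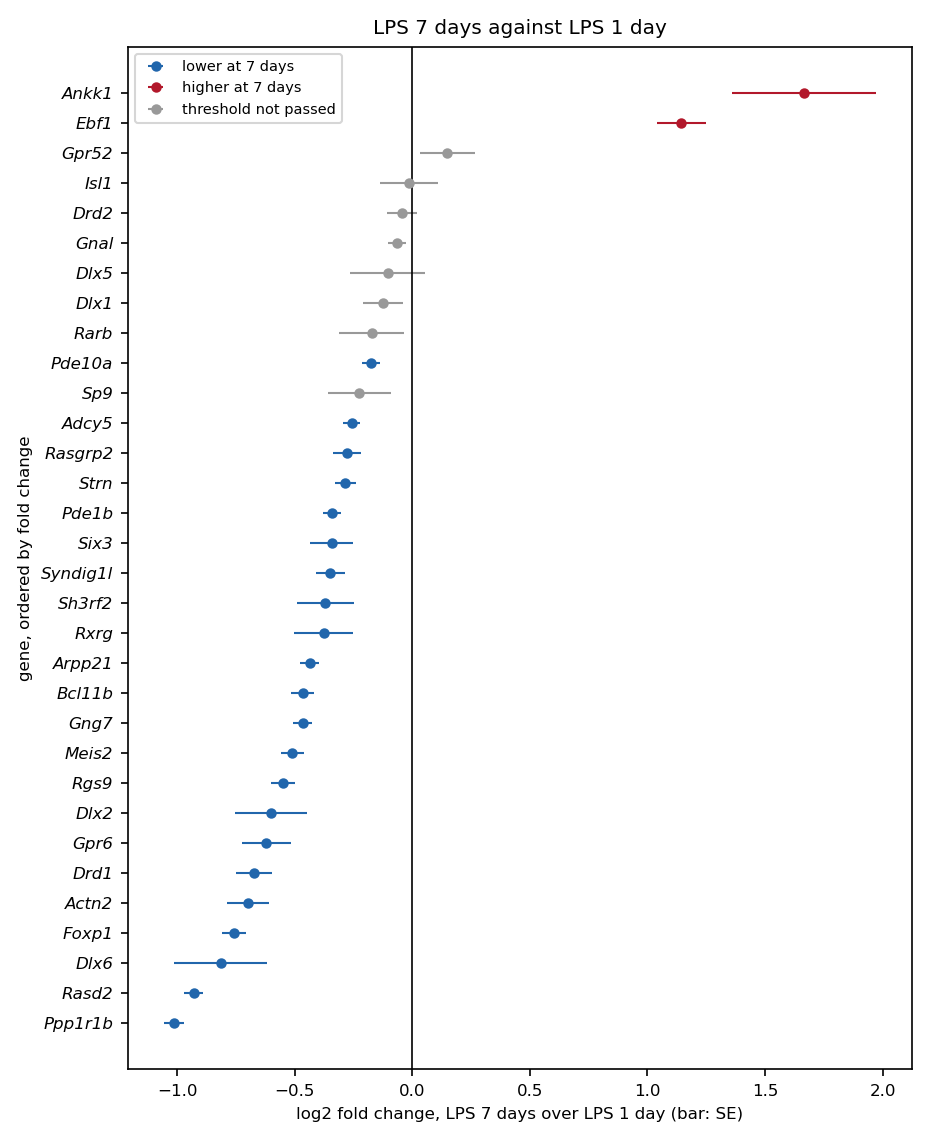
Log2 fold change of the 32 striatal genes at 7 days over 1 day after LPS, in order, with SE bars. The 22 genes in blue were lower at 7 days, Ankk1 and Ebf1 in red were higher, and the 8 in grey did not pass the threshold.

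Unequal courses changed the proportions between members within a library, in ratios of FPKM that do not depend on scaling. These ratios were picked after the values were seen and are given with no test. Drd1 stood at 0.338 ± 0.0288 of Drd2 at 7 days after LPS, 0.524 ± 0.0415 of it at 1 day after LPS and 0.42 ± 0.0103 of it in PBS. The ranges were 0.313 to 0.370, 0.490 to 0.571 and 0.409 to 0.430, so the dopamine receptor ratio was above PBS in all 1 day LPS libraries and below PBS in all 7 day LPS libraries. Ppp1r1b stood at 1.94 ± 0.0102 times Pde10a at 7 days after LPS, 3.46 ± 0.118 times at 1 day after LPS and 2.2 ± 0.152 times in PBS, again with no overlap between groups.

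The order of the members by level held only in part. In FPKM the highest members in PBS were Ppp1r1b (103 ± 3.19), Rasd2 (93.6 ± 1.94), Adcy5 (91.8 ± 4.33) and Gng7 (91.3 ± 1.62), and Rasd2, Adcy5 and Gng7 did not differ beyond their spread. At 7 days after LPS the order began with Gng7 (53.65 ± 1.87), Adcy5 (49.9 ± 0.678), Pde1b (43.1 ± 1.68) and Ppp1r1b (42.05 ± 0.975), and at 1 day after LPS with Ppp1r1b (81.7 ± 3.54) and Rasd2 (75.5 ± 1.96). The lowest was Ankk1 in every group, at 0.878, 0.263 and 1.41 FPKM at 7 days after LPS, at 1 day after LPS and in PBS. Members varied little within a group: the median coefficient of variation was 5.38% at 7 days after LPS, 5.08% at 1 day after LPS and 3.86% in PBS, with Rarb (21.5%), Ankk1 (30.1%) and Ankk1 (17.5%) the most variable. LPS 7 day replicate 3 held the highest CPM of its group in 18 of 32 members, and PBS replicate 2 the lowest of its group in 19 of 32.

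Other striatal genes, listed with earlier results of these data known, were mostly lower too. Of 18 tested, 12 were lower, 1 was higher and 5 did not pass 1 day after LPS (median log2 fold change -0.43), and 15 were lower and 3 did not pass at 7 days against PBS (median -0.76). Adora2a, the adenosine receptor of indirect-pathway neurons, was at -1.20 ± 0.05 at 7 days and -1.10 ± 0.05 at 1 day on the log2 scale, close together as for Drd2. Scn4b, a sodium channel subunit, was at -1.23 ± 0.04 at 7 days and -0.56 ± 0.04 at 1 day, and Ptpn5, a striatal phosphatase, at -0.80 ± 0.04 at 7 days and -0.44 ± 0.04 at 1 day.

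Neuropeptide genes of both pathways were lower at 7 days, with different values at 1 day. Penk, the enkephalin precursor of indirect-pathway neurons, averaged 113 ± 5.12 CPM at 7 days after LPS, 189 ± 2.27 CPM at 1 day after LPS and 200 ± 19.2 CPM in PBS. It did not pass at 1 day (-0.08 ± 0.05, but -0.15 without PBS replicate 3 and -0.18 with scaling to neuron markers, both of which passed) and fell at 7 days (-0.82 ± 0.05), while Drd2 and Adora2a were lower than in PBS at both times. Tac1, the substance P precursor of direct-pathway neurons, was at -0.73 ± 0.08 at 7 days and -0.62 ± 0.08 at 1 day. Pdyn, the dynorphin precursor of direct-pathway neurons, which was added after its values were seen, averaged 29.4 ± 2.61 CPM at 7 days after LPS, 35.0 ± 2.10 CPM at 1 day after LPS and 46.6 ± 0.868 CPM in PBS. Its groups lay apart in the same order as those of Drd1, at -0.67 ± 0.07 and -0.42 ± 0.07 against PBS at 7 days and at 1 day on the log2 scale. No test of the difference between genes was made.

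Markers shared by GABAergic neurons in general had smaller median changes. Among 18 tested genes of the GABAergic lineage and retinoid handling, 6 were lower and 12 did not pass 1 day after LPS (median -0.096), and 7 were lower, 3 higher and 8 did not pass at 7 days against PBS (median -0.087). The vesicular transporter Slc32a1 averaged 148 ± 7.54 CPM at 7 days after LPS, 115 ± 4.44 CPM at 1 day after LPS and 157.5 ± 4.10 CPM in PBS. Gad1, which encodes an enzyme of GABA synthesis, was at -0.23 ± 0.04 and Pbx3, a homeobox cofactor, at -0.34 ± 0.08 at 1 day. Meis1, the relative of Meis2, averaged 16.2 ± 0.17 CPM at 7 days after LPS, 4.44 ± 0.995 CPM at 1 day after LPS and 7.76 ± 0.665 CPM in PBS, and was thus above PBS at 7 days like Ebf1, beside the same cerebellar markers.

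Markers of other regions are given beside these results. The 6 general neuron markers summed to 5121 to 5287 CPM at 7 days after LPS, 5677 to 5810 CPM at 1 day after LPS and 5307 to 5489 CPM in PBS, while the striatal sums at 7 days were 52.0% of PBS. By gene, 4 of these 6 were higher and 2 lower at 7 days against PBS (median log2 fold change 0.20). At 1 day 3 of them were higher, 2 lower and 1 did not pass (median 0.10). The 8 thalamic markers summed to 742 to 763 CPM at 7 days after LPS, 790.4 to 796 CPM at 1 day after LPS and 843 to 856 CPM in PBS. By gene, thalamic markers had a median log2 fold change against PBS of -0.37 at 7 days, with 6 of 8 lower and 1 higher, and of -0.41 at 1 day, with 5 of 8 lower and 2 higher, beside -0.43 for the other striatal genes at 1 day. The 2 that were higher at 1 day, Prkcd (303 CPM at 1 day after LPS and 266 CPM in PBS) and Rora (201 CPM at 1 day after LPS and 188 CPM in PBS), hold much of the sum. The 6 cortical markers summed to 779 to 804 CPM, 1037 to 1068 CPM and 851 to 888 CPM in the same order of groups. Of these, 4 were lower, 1 higher and 1 did not pass at 7 days against PBS (median -0.33). At 1 day 1 cortical marker was lower, 3 were higher and 2 did not pass (median 0.21). None of the listed thalamic, cortical or striatal markers was at 0 in any library. How much of each region the tissue pieces held was not given in the sources used here, and the part of tissue make-up in the fall of the striatal genes was not tested.

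**Figure D5:**
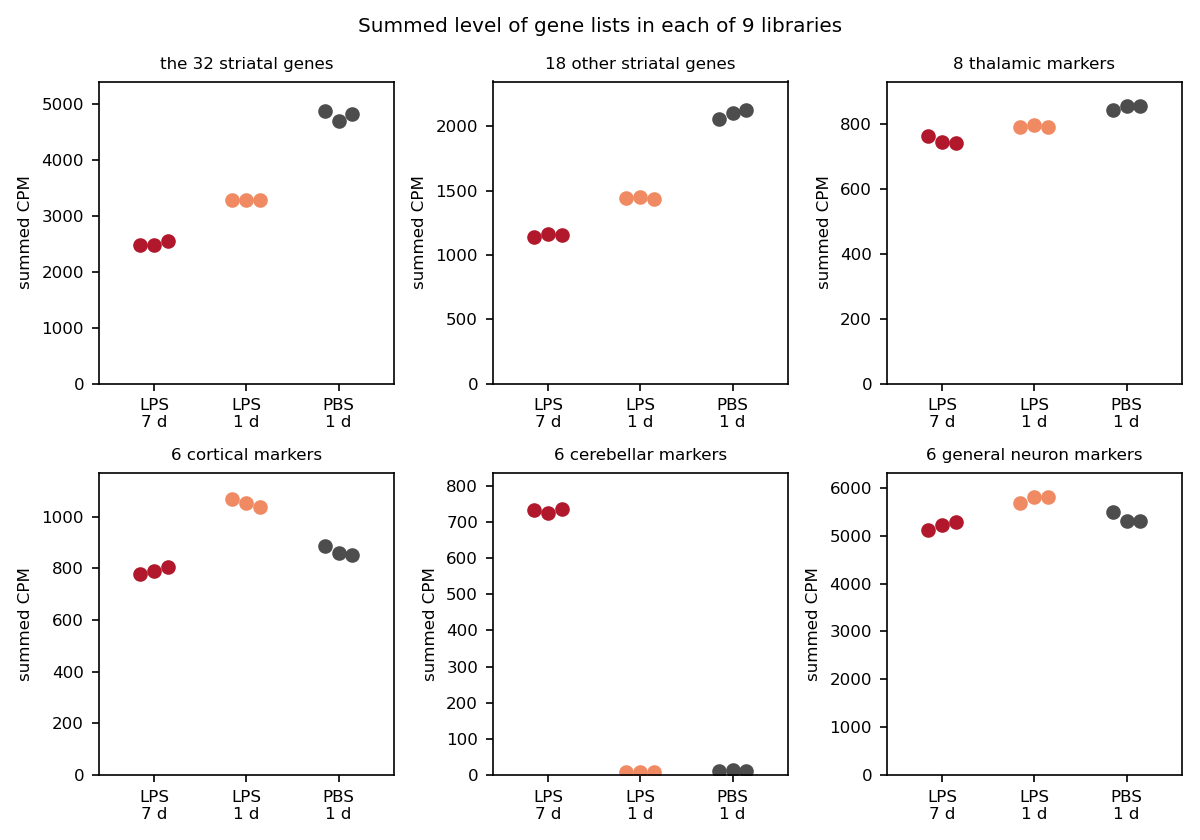
Summed CPM of 6 gene lists in each of the 9 libraries, by group. The striatal lists stand lowest at 7 days after LPS and highest in PBS, the summed thalamic and general neuron markers vary less although most thalamic markers were lower gene by gene (5 of 8 at 1 day and 6 of 8 at 7 days), and the cerebellar markers are high in the 3 libraries at 7 days after LPS.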

How the data were processed

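Tissue of the paraventricular thalamus was sequenced with TruSeq RNA libraries from total RNA, per the labels' protocols. The authors deposited raw read counts per gene, and the submitters' processing notes name TopHat2, HISAT2, HTSeq and GRCm39. The step each tool served, its version and strandedness were not stated there. The authors also deposited FPKM values, which scale counts by gene length and library total (recomputed within a relative difference of 1.6e-07). Gene lengths, positions and names were used as deposited.

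Counts of all 9 libraries were fitted with edgeR 4.0.16 (R 4.3.3) by quasi-likelihood with a mean per group, TMM factors (0.982 to 1.03) and filterByExpr (minimum count 10). The common biological coefficient of variation was 4.15%, with 43.4 prior and 6 residual degrees of freedom. P-values were two-sided and adjusted by Benjamini and Hochberg over 14837 genes. A gene was called when its adjusted p was under 0.05. SE is the log2 fold change divided by the square root of F. The code was tested on simulated counts. Members, lists and alternatives were chosen with earlier results of these data known. Members were named in full if they encode dopamine receptors or had the 4 largest or 4 smallest changes in a comparison, and up to 4 genes per other list by p-value at 1 day. DESeq2 1.42.0, other scalings, no filter, a replicate block and fits without each library were the alternatives. Genes without a count in any library (3516) were not testable. Promoter sequences are RefSeq's on GRCm38.p6 and gene positions are GRCm39. For 1 listed gene picked by the naming rule no values are given.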

Additional observations from a re-analysis of the deposited data

Results flagged for a closer look

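Ebf1 stood out because its libraries lay on opposite sides of PBS at 7 days and at 1 day. The log2 fold change against PBS was 0.65 at 7 days after LPS and -0.50 at 1 day after LPS, with all 3 libraries of each LPS group beyond all 3 PBS libraries. Both values share the same PBS libraries, and a PBS group at 7 days was not analysed here. Set directly against each other, the LPS groups differed by 1.14 ± 0.10. The summed cerebellar markers, 726 to 737 CPM at 7 days after LPS, 9.01 to 9.65 CPM at 1 day after LPS and 10.9 to 12.7 CPM in PBS, moved with the 7 day value, and their part in it was not tested.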

How the results depend on the processing

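Against PBS, 30 members were called lower at 1 day under every alternative tried, and 31 lower and 1 higher at 7 days except without PBS replicate 1, where Ankk1 no longer passed and 30 were lower. Medians moved beyond the replicate spread (0.0798) only with scaling to general neuron markers, to -0.76 at 1 day against PBS and -0.20 between 7 days and 1 day. Without single libraries the medians ran from -0.67 to -0.61, from -0.98 to -0.90 and from -0.40 to -0.30, the genes called from 6371 to 7484, 4629 to 5304 and 7584 to 8530, and the members called from 30 to 30, 31 to 32 and 22 to 25 (1 day against PBS, 7 days against PBS, 7 days against 1 day). Signs turned only in genes that had not passed. At 1 day these were Foxp1 (9.9e-05 on autosomes, -0.021 to 0.0095 without single libraries) and Dlx2 (-0.13 to 0.055 without single libraries). Between 7 days and 1 day they were Drd2 (0.014 by library size, 0.10 by neuron markers, -0.082 to 0.013 without single libraries) and Isl1 (0.043 by library size, 0.0088 by upper quartile, 0.13 by neuron markers, -0.078 to 0.063 without single libraries). Scaling to neuron markers also turned Gnal (0.079), Dlx1 (0.022), Dlx5 (0.040), Adora2a (0.053) and Tac1 (0.041). The cause was not tested.

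Over all genes, calls at 7 days against PBS split into 2800 lower and 2489 higher, but 2327 and 3183 by library size and 2234 and 3134 by neuron markers, a scaling that puts the median of all genes at -0.11 (1 day against PBS), 0.045 (7 days against PBS) and 0.14 (7 days against 1 day). By neuron markers calls were 5322 lower and 2407 higher at 1 day (3590 and 3699 by TMM), and 2728 lower and 6184 higher between the LPS groups (4324 and 4075 by TMM). DESeq2 called 30, 32 and 24 members. Same-numbered libraries did not deviate together (r from -0.0775 to 0.0295), and with the replicate block 30, 32 and 24 members and 7142, 5139 and 8269 genes were called. Depth limits Ankk1 most, with 9 to 17 counts in the 1 day LPS libraries.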

Other observations

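Markers of other basal forebrain neurons were mostly lower at 1 day and mixed at 7 days. Of 7 listed markers of striatal interneurons and basal forebrain, 3 were lower, 2 higher and 2 did not pass at 7 days after LPS against PBS (median log2 fold change -0.19). At 1 day 5 were lower and 2 did not pass (median -0.34), and 2 were lower and 4 higher between 7 days and 1 day after LPS. They summed to 263 to 276 CPM at 7 days after LPS, 182 to 194 CPM at 1 day after LPS and 225 to 247 CPM in PBS. The 3 septal markers summed to 267 to 275 CPM at 7 days after LPS, 93.3 to 94.0 CPM at 1 day after LPS and 110.1 to 114 CPM in PBS, of which Zic1, a zinc finger factor also typical of cerebellum, made up 246, 78.3 and 96.3 CPM on average. The 5 olfactory bulb markers summed to 40.5 to 46.0 CPM, 26.7 to 29.0 CPM and 51.7 to 56.4 CPM, and the 6 habenular markers to 50.6 to 53.6 CPM, 52.4 to 53.8 CPM and 75.6 to 80.3 CPM in the same order. By gene, 1 of the 5 olfactory bulb markers was lower and 4 did not pass at 1 day (median -0.16). At 7 days against PBS 2 of them were lower, 2 higher and 1 did not pass (median 0.23). Of the 6 habenular markers, 2 were lower than in PBS and 4 did not pass at each time (median -0.28 at 1 day and -0.34 at 7 days).

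Glial lists differed by time. The 4 oligodendrocyte markers summed to 7686 to 8263 CPM at 7 days after LPS, 5628 to 5643 CPM at 1 day after LPS and 5802 to 6105 CPM in PBS, with 4 of 4 higher at 7 days than in PBS (median log2 fold change 0.29), and 3 of 4 lower and 1 not passed at 1 day (median -0.24). Astrocyte markers summed to 2772 to 2842 CPM, 3103 to 3149 CPM and 2792 to 2863 CPM, and microglial markers to 157 to 159.6 CPM, 175 to 186 CPM and 149 to 159.5 CPM, in the same order of groups. By gene, 3 of 4 astrocyte markers were higher and 1 lower at 7 days against PBS (median 0.26). At 1 day 2 of them were lower and 2 higher (median -0.014), unlike the order of the sums. Of the 4 microglial markers, 2 were higher, 1 lower and 1 did not pass at 1 day, and 4 did not pass at 7 days against PBS.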
